A study of Drosophila melanogaster with 6 samples.

Results

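The dependence of the bacterial response on Spätzle was read as a difference between responses in whole adult flies. A response is the log2 ratio of the signal after bacteria over the signal after phosphate-buffered saline (PBS). The difference is the response of spz[rm7] flies minus the mean of the responses of gyc76c[revert] and gyc76c[KG03723] flies, so a negative difference means a lower response in the spz mutant. The contrast used all 6 arrays of the series, 2 per genotype, and was computed for every probe set. The spz[rm7] flies, called rm7 here, carry a mutation of the gene for the Toll ligand. The gyc76c[KG03723] flies (KG03723) are mutant for Gyc76C, which encodes a receptor guanylate cyclase, and the gyc76c[revert] flies (revert) are labelled as the control. Adults of each genotype were injected with Staphylococcus saprophyticus, a Gram-positive bacterium, or with PBS, and whole bodies were taken 12 hours later. The labels give no sex, exact age, zygosity, shared genetic background or number of flies per array, so the rm7 flies may differ from the others in more than spz. There was 1 array for each genotype and injection, hence no replicate spread.

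In flies, circulating recognition proteins sense Gram-positive peptidoglycan and start a cascade of serine proteases that ends in SPE, which cleaves Spätzle. Cleaved Spätzle binds the receptor Toll, the inhibitor Cactus is degraded, and the NF-kappaB factors Dif and Dorsal switch on genes for secreted peptides, chiefly in the fat body. The Bomanin peptides and Drosomycin are the best known products of this pathway. The separate IMD pathway, which acts through Relish, controls attacins, cecropins, diptericins and defensin.

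Deposited MAS5 signals were compared for 10105 genes that exceeded a floor of 42.7 on at least 1 array. Signals under the floor were set to it. Where only arrays that would enlarge a difference were at the floor, its size is given as "at least". The brightest probe set of each array read 30455 to 41453. Muscle, gut, eye, testis, accessory gland and ovary genes were all read on every array. Genes of male and of female organs were thus both read on each array, though the labels give no sex. The share of each sex per array is not known. Summed signals of the 33 measured testis genes were 36307 after bacteria and 24747 after PBS in rm7, against 21423 and 38669 in revert and 34008 and 34137 in KG03723. The rm7 bacteria array had the highest 3'/5' signal ratios of the control transcripts, 2.81 for actin, 2.68 for GAPDH and 6.61 for eIF-4a. In a whole-body sample, fewer cells of a type and less RNA per cell cannot be told apart. The transcript of spz itself read 813 after bacteria and 951 after PBS in rm7, 1122 and 1059 in revert, and 1094 and 942 in KG03723, so its level does not check the label.

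Genes that were higher after bacteria in both revert and KG03723 stayed near their PBS level in rm7. At least 2-fold higher signals after bacteria were found for 22 genes in both revert and KG03723, 0.218% of the genes compared. The 22 are 37.3% of the 59 genes higher in revert and 45.8% of the 48 higher in KG03723. Of the 63 genes at least 2-fold higher in rm7 (0.623% of the 10105 compared), 0 were also higher in revert and 1 was higher in KG03723. Sets this small among 10105 genes would share few members by chance, so these counts say little about rm7. None of the 22 reached 2-fold in rm7, where 0.623% of all genes did, so the 0 alone says little. Their rm7 responses ran from -0.31 to 0.60 with a median of 0.12. For 4 of them, CG33462, CG30091, CG30287 and CG42680, both rm7 arrays were under the floor, which sets the response to 0. The median response of the 22 was 1.52 in revert and 1.48 in KG03723. The 22 were chosen for a high response in those genotypes, which by itself favours a lower value in the remaining one.

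The genes of this set were also low in rm7 without bacteria. On the rm7 PBS array 20 of the 22 read below both other PBS arrays, and after bacteria all 22 read below both other genotypes. For 15 of them the rm7 signal after bacteria did not reach the lower of the 2 PBS signals of revert and KG03723. The shares of all genes for these counts are not given here. Choosing genes for high ratios in revert and KG03723 by itself favours low rm7 ranks after bacteria.

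Among the 22 were nec and SPE, both extracellular components of the Toll cascade. The serpin gene nec, whose product restrains the proteases upstream of Spätzle, read 731 after bacteria and 689 after PBS in rm7, against 3705 and 1362 in revert and 4197 and 1666 in KG03723. Its responses were 0.09, 1.44 and 1.33, a difference of -1.30 (limma adjusted p = 0.315). SPE, the protease that cleaves Spätzle, read 957 and 835 in rm7, against 6745 and 2259 in revert and 6528 and 3058 in KG03723. Its difference was -1.14. The rm7 signals of nec and SPE after bacteria thus lay below all 4 signals of revert and KG03723. Hayan and spirit, of the same cascade, are not among the 22, since their KG03723 responses of 0.79 and 0.71 were under 2-fold. For Hayan, a clip-domain protease of melanization and Toll activation, the signals were 132 and 124 in rm7, 407 and 133 in revert and 252 and 146 in KG03723, a difference of -1.12. Hayan differed from nec and SPE in that the rm7 PBS signal was close to the other PBS signals. The clip protease gene spirit, whose rm7 PBS signal was the highest of the 3, had a difference of -0.96, with 175 and 180 in rm7, 224 and 103 in revert and 166 and 101 in KG03723.

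The cascade as a list of 15 did not move together. Of its 10 measured members, 3 had a difference at least 2-fold lower and 1, the protease homolog gene sphinx2, at least 2-fold higher (1.15), and the list median was -0.07. Over all 10105 genes 80 were at least 2-fold lower (0.792%) and 589 at least 2-fold higher (5.83%). With quantile normalization of the arrays these became 147 and 351, so the balance between the directions depends on the scaling. The pattern-recognition gene GNBP3 and the protease genes psh and grass had differences of 0.24, 0.34 and 0.35, and sphinx1 one of at least 0.41 with the KG03723 bacteria array under the floor. The revert-only and KG03723-only differences of grass and sphinx1 had opposite signs.

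A stricter criterion asked that the rm7 response lie at least 2-fold outside the response of revert and that of KG03723 separately. It held for 52 genes below both (0.515%) and 156 above both (1.54%). Quantile normalization gave 81 below and 81 above. The 52 genes below both fell into 3 kinds, of which 15 were at least 2-fold higher after bacteria in revert and KG03723, 21 were at least 2-fold lower after bacteria in rm7, and 16 were neither. The 156 above both comprised 16 genes at least 2-fold lower after bacteria in revert and KG03723, 39 at least 2-fold higher in rm7, and 101 that were neither.

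**Figure D1:**
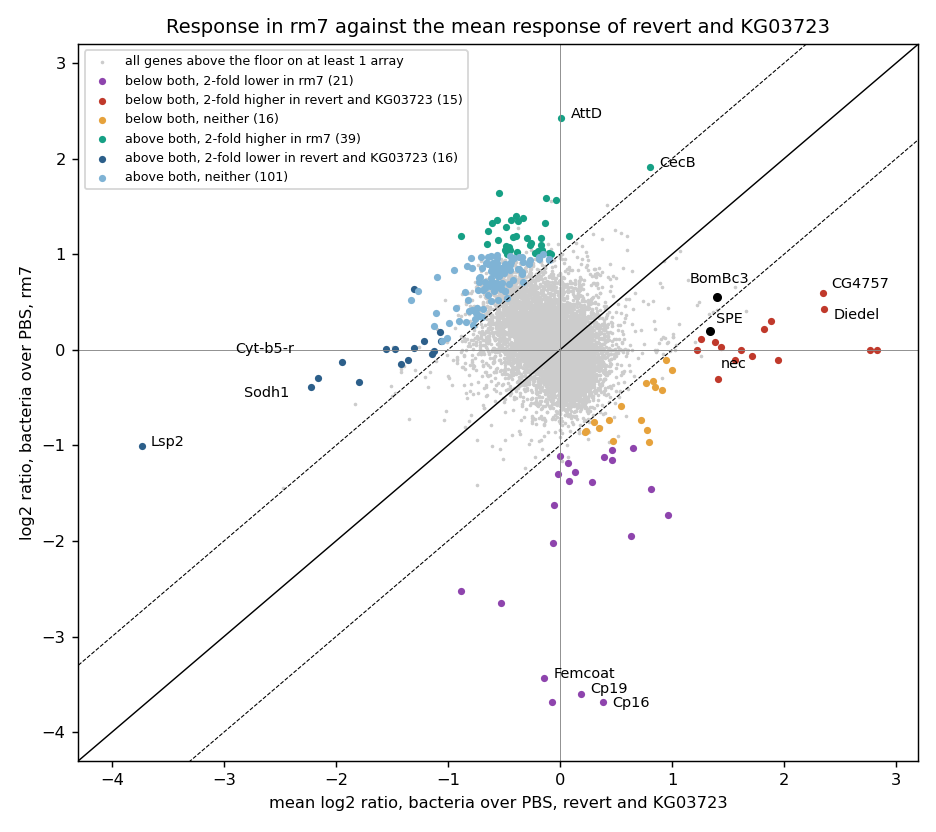
Each point is 1 gene, with the log2 ratio of bacteria over PBS in rm7 on the y axis and the mean of the ratios of revert and KG03723 on the x axis. The solid line marks equal responses and the dashed lines a 2-fold difference. Coloured points are the 52 genes below and the 156 above both other genotypes, and SPE and BomBc3 are marked in black. The eggshell genes Cp16, Cp19 and Femcoat stand at the bottom, AttD at the top, Lsp2 at the left and CG4757 and Diedel at the right near the zero line of rm7.

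The difference could be tested only with a fit that treats the 2 responses of revert and KG03723 as repeats of each other. This limma model of genotype, injection and an rm7-by-injection term has 1 residual degree of freedom, and assumes that the single rm7 response varies as those 2 do. Of the 9540 genes that exceeded the floor on 3 or more arrays, 0 passed as lower and 0 as higher after Benjamini-Hochberg adjustment. At an unadjusted p under 0.05 there were 536 lower (5.62%) and 603 higher genes (6.32%). Together these were 11.9%, where 477 genes over both directions combined are expected by chance if the assumptions of the fit hold. The smallest adjusted p was 0.0957, for the eggshell gene Cp19 and for CG13083. CG13083 is uncharacterized and belongs to an eggshell list partly chosen with values known. Cp19 and CG13083 passed limma with quantile normalization (adjusted p = 0.0119), cyclic loess (0.0276) and a floor at the 20th percentile (0.0249). The false calls of this fit on simulated data could exceed the nominal rate.

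Between the 2 genotypes with intact spz, differences were about as frequent on the lower side. The KG03723 response was at least 2-fold below the revert response for 110 genes (1.09%) and above it for 401 (3.97%). For rm7 against revert the numbers were 104 (1.03%) and 1089 (10.8%), and for rm7 against KG03723 118 (1.17%) and 323 (3.2%). These 3 comparisons share arrays.

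Below the eggshell genes, described further on, the lowest differences included genes with a high response in both revert and KG03723. Diedel, a secreted protein gene regulated by infection, read 333 after bacteria and 248 after PBS in rm7, against 15872 and 5690 in revert and 4256 and 450 in KG03723. Its difference was -1.94 ± 0.74 (limma SE). CG4757 read 124.5 and 82.3 in rm7, against 18036 and 5095 in revert and 13896 and 1907 in KG03723, a difference of -1.75 ± 0.45. Both genes did respond weakly in rm7, with ratios of 0.42 and 0.60, from a level far below that of the other genotypes. The serpin gene Spn28Dc, which restrains melanization, behaved otherwise and was slightly lower after bacteria in rm7, at 105 and 130.5, against 693 and 288 in revert and 500 and 171 in KG03723. Its difference was -1.71 ± 0.33. CG30026 read 561 and 587 in rm7, 1681 and 470 in revert, and 2681 and 894 in KG03723, a difference of -1.78 ± 0.18 with an rm7 PBS signal between the other 2.

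Several further genes of this kind were dim in rm7. With the floor used, the response of CG18563 was at least 4.16-fold lower in rm7. There it read 27.2 after bacteria, under the floor, and just above the floor after PBS. It read 255 and 86.0 in revert and 445 and 88.4 in KG03723. Across the alternatives run, the CG18563 difference ranged from -2.71 to -0.48. CG33462 and CG30091 were under the floor on both rm7 arrays, so they have no rm7 response. Their responses were 2.86 and 2.97 in revert and 2.80 and 2.56 in KG03723. Genes taken here after their values were seen, because they met the criterion in both genotypes, were Lst, CG11842, CG16772 and Sid. Lst, which encodes limostatin, a hormone that lowers insulin release, read 1236 and 1062 in rm7, against 1580 and 362 in revert and 1884 and 660 in KG03723. Its PBS level in rm7 was thus the highest of the 3, in contrast to most of the set. CG11842 had responses of 0.30 in rm7, 2.10 in revert and 1.67 in KG03723. CG16772 read 246 and 265 in rm7, against 2681 and 878 in revert and 2234 and 784 in KG03723. Sid, the stress-induced DNase gene, was again low on both rm7 arrays, with 173 and 169, against 938 and 345 in revert and 1002 and 374 in KG03723.

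**Figure D2:**
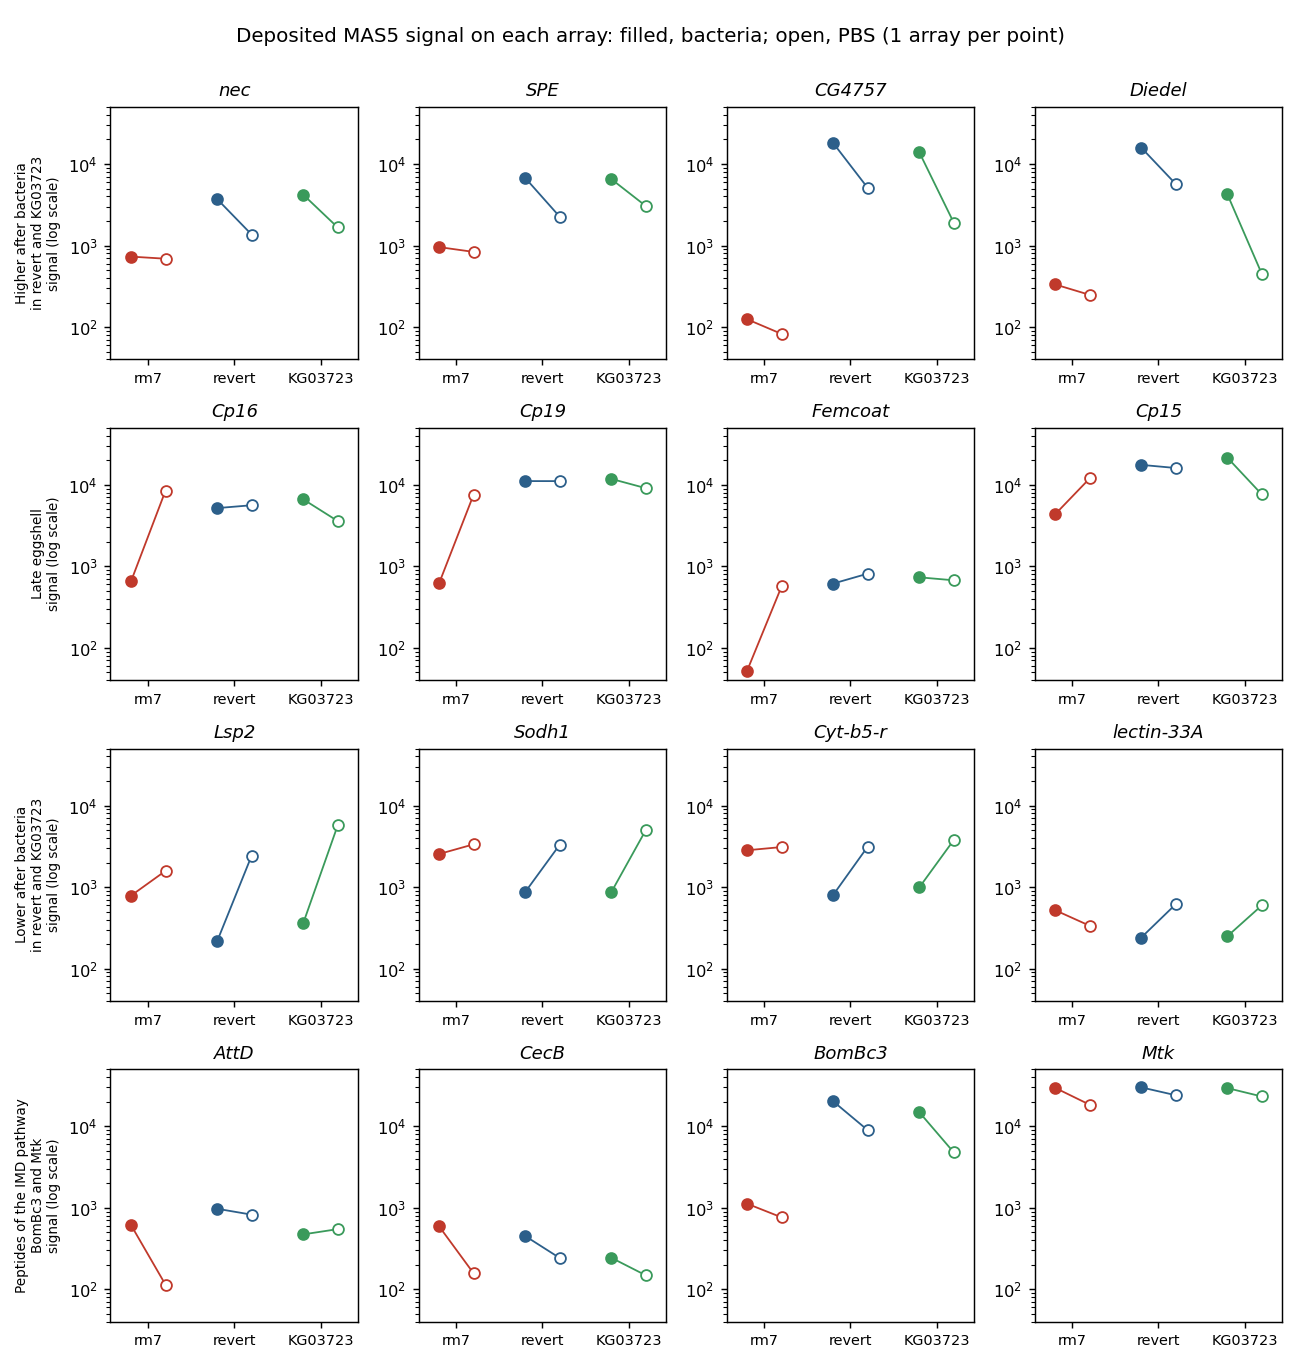
Deposited MAS5 signals on a log axis for 16 genes, with rm7 in red, revert in blue and KG03723 in green. Filled circles are arrays after bacteria and open circles arrays after PBS, with 1 array per point and no error bars. In rm7 the lines of nec, SPE, Sodh1 and Cyt-b5-r are nearly flat, those of the 4 eggshell genes are steep, and AttD starts from the lowest PBS signal.

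The Toll-responsive peptides that could be read showed a small difference in response. Of 26 listed genes 16 were measured and 2 were under the floor on every array. BomS1, BomS3, BomT1, BomBc1, BaraA1, BaraA2, Dso1 and Dso2 had no single-gene probe set, so their responses are not known here. Among the 16 measured genes, 12 differences lay below 0 and 4 above, with a median of -0.24 against 0.00 over all genes. Over all 10105 genes, 5036 differences lay below 0 and 5068 above. In either direction, 0 of 16 differences were at least 2-fold. This is near the shares of all genes, 0.792% lower and 5.83% higher, so the 0 says little. The largest difference was that of the Bomanin gene BomT2. It read 2061 after bacteria and 1572 after PBS in rm7, against 11515 and 4226 in revert and 11232 and 4616 in KG03723. Its responses of 0.39, 1.45 and 1.28 gave a difference of -0.97 ± 0.13. BomBc3 read 1123 and 765 in rm7, against 20235 and 8977 in revert and 14889 and 4793 in KG03723, a difference of -0.85 ± 0.22. For both genes the rm7 signals of either injection lay below all 4 other signals.

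BomS2 had a difference of -0.90 ± 0.51, and the wide error comes from its unequal responses of 0.96 in revert and 2.17 in KG03723, against 0.66 in rm7. BomT3 had -0.79, Bbd, also called bombardier and needed for Bomanin activity, -0.52, and BomBc2 -0.41. The rest lay closer to 0, with BomS5 at -0.26, Drs, the gene of the antifungal peptide Drosomycin, at -0.16 and Drsl5 at -0.02. The other members, 4 in number, ran the opposite way. BomS4 was at 0.22, BomS6 at 0.30, the metchnikowin gene Mtk, which IMD also controls, at 0.36, and Drsl4 at 0.68. BomS6 read 3507 and 2095 in rm7, against 5125 and 3754 in revert and 8039 and 5922 in KG03723. Drsl4 stood apart in level too, with 4328 and 3581 in rm7 against 625 and 784 in revert and 542 and 764 in KG03723.

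Drs read 12983 and 9916 in rm7, against 27602 and 20396 in revert and 28717 and 18196 in KG03723. Mtk read 29644 and 18424 in rm7, against 30062 and 24081 in revert and 29460 and 23240 in KG03723. In revert, Bbd reached 33105 after bacteria, near that array's highest signal of 37347, while it read 10499.7 after bacteria in rm7. Compression of the scale at such levels was not tested. Drsl1 and Drsl2 were under the floor on both rm7 arrays and Drsl3 read 82.1 and 61.2 there, so their responses in rm7 carry little information.

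**Figure D3:**
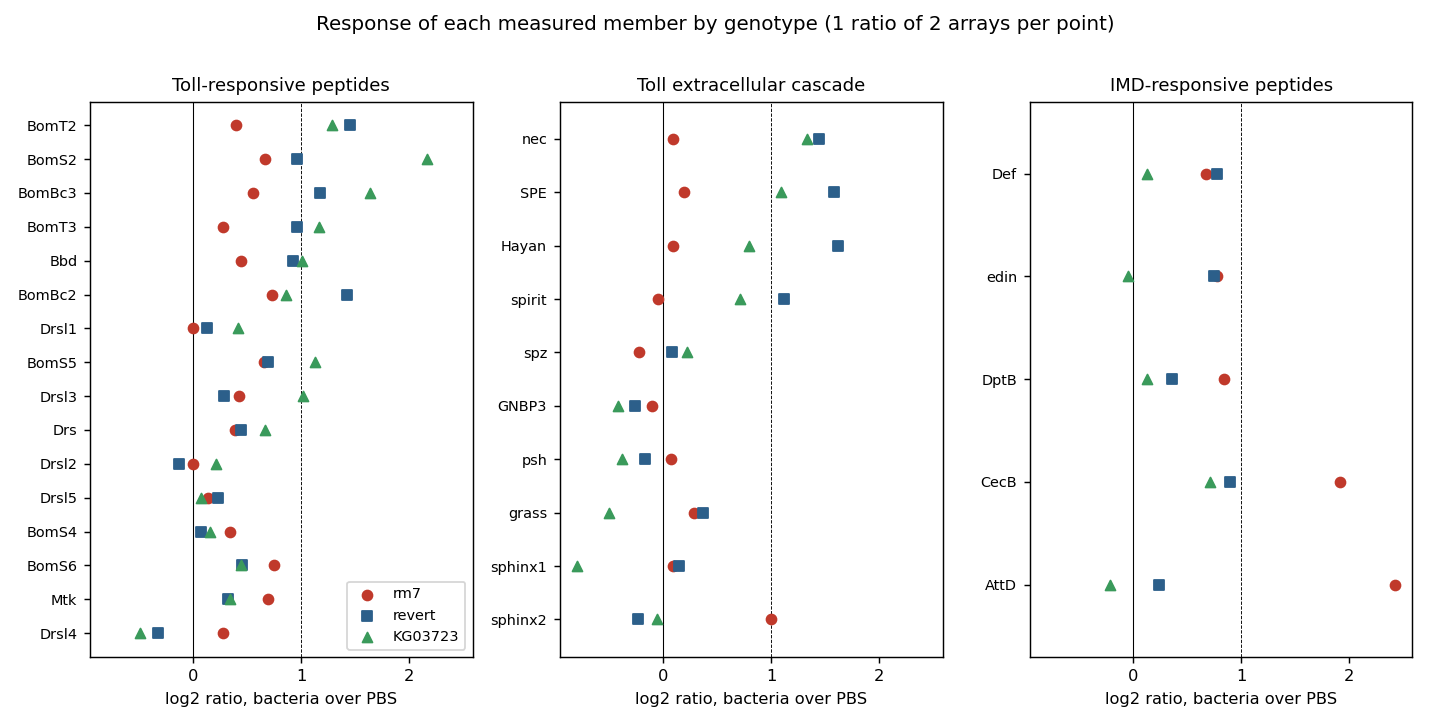
Response of each measured member of 3 lists in each genotype, with 1 ratio of 2 arrays per point. The x axis is the log2 ratio of bacteria over PBS, with a solid line at 0 and a dashed line at 2-fold. Circles are rm7, squares revert and triangles KG03723. The rm7 circles lie left of both other symbols for BomT2, BomBc3, nec and SPE, and right of both for Mtk, DptB, CecB and AttD.

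The receptor and intracellular part of the Toll pathway had small differences, most of them below 0. Of 11 measured genes 8 were below 0, with a median of -0.28, and 0 reached 2-fold. Over all 10105 genes, 5036 lay below 0, 0.792% were at least 2-fold lower and 5.83% at least 2-fold higher. The 0 of 11 is near these shares and says little. The NF-kappaB inhibitor gene cact read 2921 after bacteria and 3679 after PBS in rm7, against 5447 and 3933 in revert and 5513 and 3465 in KG03723, a difference of -0.90 ± 0.14. A second cact probe set gave -0.35, so the size depends on the probe set. The kinase gene pll was at -0.79 and the adaptor gene tub at -0.66. With the probe sets of each gene averaged, the list median was -0.10.

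Of the IMD pathway peptides that could be read, 2, AttD and CecB, had an rm7 response at least 2-fold above both other genotypes. All 5 measured of 13 listed had a difference above 0, with a median of 0.59. Over all 10105 genes, 5068 lay above 0, and 1.54% were at least 2-fold above both other genotypes. AttA, AttB, AttC, DptA, CecA1, CecA2, CecC and Dro had no single-gene probe set. The attacin gene AttD read 611 after bacteria and 114 after PBS in rm7, against 974 and 825 in revert and 473 and 548 in KG03723. Its response of 2.43 in rm7, against 0.24 in revert and -0.21 in KG03723, gave a difference of 2.41 ± 0.28 (limma adjusted p = 0.331). The high response thus started from a low PBS signal and ended between the other genotypes. The cecropin gene CecB read 592 and 157 in rm7, against 451 and 243 in revert and 244 and 149 in KG03723, a difference of 1.11 ± 0.31. In CecB the PBS signals of rm7 and KG03723 were alike and the rm7 signal after bacteria was the highest.

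The other 3 measured IMD peptides were abundant and changed less. DptB, a diptericin gene, read 20561 and 11516 in rm7, 24067 and 18705 in revert, and 25323 and 23154 in KG03723, a difference of 0.59. For edin and Def the rm7 responses of 0.78 and 0.67 were close to those of revert, at 0.75 and 0.78, and their differences of 0.43 and 0.22 rested on KG03723, at -0.05 and 0.12. The Def difference was -0.11 against revert alone.

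Several peptidoglycan recognition protein genes lay on the same side. PGRP-LB, an amidase that degrades peptidoglycan, read 712 and 336 in rm7, against 564 and 407 in revert and 486 and 514 in KG03723, a difference of 0.89. PGRP-LF and PGRP-LA had differences of 0.62 each, and that of PGRP-LF turned to -0.09 with a floor at the 60th percentile. PGRP-SB1, another peptidoglycan amidase gene, read 13048 and 6972 in rm7, against 5470 and 7289 in revert and 6088 and 11468 in KG03723, a difference of 1.57 ± 0.24. It was higher after bacteria in rm7 and lower in both other genotypes. The 18 measured IMD pathway components as a whole were centred on 0, with a median of -0.01, 9 on each side, and 0 at least 2-fold apart. With 0.792% of all genes at least 2-fold lower and 5.83% higher, that last 0 says little.

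Genes that were lower after bacteria in both revert and KG03723 also had a small response in rm7. In both revert and KG03723, 24 genes were at least 2-fold lower (0.238%), and these are 6.94% of the 346 lower in revert and 27.6% of the 87 lower in KG03723. In rm7, 2 of the 24 were at least 2-fold lower, where 33 of all 10105 genes were (0.327%). Of these 33 genes, 3 were also lower in revert (9.09%) and 6 in KG03723 (18.2%). The median response of the 24 was -0.14 in rm7, -1.41 in revert and -1.36 in KG03723. After bacteria 21 of the 24 read higher in rm7 than in both other genotypes. As above, the genes were chosen on the responses of revert and KG03723, which favours this rank, and its share over all genes is not given here.

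The storage protein gene Lsp2 had the highest difference of all genes, 2.72 ± 0.25 (limma adjusted p = 0.315). It read 787 after bacteria and 1583 after PBS in rm7, against 217.5 and 2431 in revert and 362 and 5719 in KG03723. Lsp2 was thus lower after bacteria in all 3 genotypes, by 2.01-fold in rm7, 11.2-fold in revert and 15.8-fold in KG03723. Sodh1, a sorbitol dehydrogenase gene, read 2547 and 3344 in rm7, against 870.5 and 3302 in revert and 866 and 4989 in KG03723, a difference of 1.83 ± 0.28. The cytochrome b5-related gene Cyt-b5-r read 2829 and 3097 in rm7, against 804 and 3130 in revert and 991 and 3778 in KG03723, a difference of 1.82 ± 0.12 (limma adjusted p = 0.182). Unlike nec and SPE, Sodh1 and Cyt-b5-r had PBS signals in rm7 near those of revert. Cyt-b5-r passed the limma test with quantile normalization, with an adjusted p of 0.04998 and under the same limit as Cp19 and CG13083.

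CG32444 had a difference of 1.86, and lectin-33A, a C-type lectin gene, one of 1.94. Genes of the same kind, named after their values were seen, were Miox, the gene for myo-inositol oxygenase, with a response of 0.01 in rm7, -1.47 in revert and -1.63 in KG03723, and the P450 gene Cyp309a1, with 0.00, -1.58 and -1.36. The calcium-binding protein gene regucalcin had -0.11, -1.30 and -1.42. The list of 18 measured storage protein and fat body genes had a median difference of 0.57, with 16 of 18 above 0 and 4 at least 2-fold higher. Of all 10105 genes, 5068 lay above 0 and 5.83% were at least 2-fold higher. The median response of the list was 0.02 in rm7, -0.44 in revert and -0.69 in KG03723. The fatty acid synthase gene FASN1 read 10732 and 10666 in rm7, against 4990 and 8157 in revert and 6303 and 11374 in KG03723. The acetyl-CoA synthase gene AcCoAS read 5250 and 4912 in rm7, against 2568 and 5043 in revert and 2657 and 5810 in KG03723, a difference of 1.15. The lipoprotein receptor gene LpR2 was the exception, at -0.80, with a response of 0.08 in rm7, 0.61 in revert and 1.15 in KG03723.

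Among genes with a probe set of their own, the lowest differences belonged to late eggshell genes, whose signal after bacteria was far lower in rm7. Late chorion genes are expressed by follicle cells in the last stages of egg formation. The list of 13 holds several uncharacterized genes taken up with their values known. In it 10 had a difference at least 2-fold lower and all 10 were below both other genotypes. The shares over all genes were 0.792% and 0.515%. The list median was -2.12, where members under the floor were set to it. Among the 10 were the uncharacterized CG13083, CG13084, CG31926, CG31928 and CG15571, so the count and the median are partly set by that choice. The rest of the 10 were Cp15, Cp16, Cp18, Cp19 and Femcoat. Cp16 read 659.7 after bacteria and 8507 after PBS in rm7, against 5177 and 5612 in revert and 6628 and 3589 in KG03723, a difference of -4.07 ± 0.43. Cp19 read 621.5 and 7565 in rm7, against 11101 and 11092 in revert and 11815 and 9092 in KG03723 (-3.80 ± 0.20). Femcoat read 52.6 and 567 in rm7, against 615 and 812 in revert and 733 and 674 in KG03723 (-3.29 ± 0.31).

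In rm7 the PBS signal of Cp16 was above, and those of Cp19 and Femcoat somewhat below, both other PBS signals, so the low rm7 value was that after bacteria. CG13083 read 66.7 and 856 in rm7, against 1528 and 1670 in revert and 1462 and 1476 in KG03723. Cp18 and Cp15 had differences of -2.58 and -2.27, to which KG03723 contributed with responses of 1.52 and 1.496. CG13084 and CG31926 were lower by at least 4.35-fold and 3.88-fold. With a floor at the 60th percentile their differences turned to 0.37 and 0.0026, and the list median was -0.47. Across the alternatives run, the differences of Femcoat, CG13083 and CG31928 shrank to as little as -1.09, -1.76 and -0.47. Those of Cp16 and Cp19 shrank only to -3.57 and -3.61. Muc12Ea, a mucin gene outside the list, was at -2.69, and CG31928 was at -1.67. The 3 members in the other direction were yellow-g (0.36), yellow-g2 (0.78) and Muc4B (1.32).

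Earlier eggshell genes did not share this. The 12 measured early chorion and vitelline membrane genes had a median difference of -0.09, with 0 at least 2-fold apart. They ranged from -0.48 for Cp38 to 0.95 for Cp7Fc. Since 0.792% of all genes were at least 2-fold lower and 5.83% higher, the 0 alone says little. Against KG03723 alone the median of this list was 0.06. The summed signal of the 13 late chorion genes was 8321 after bacteria and 36565 after PBS in rm7, against 44114 and 45209 in revert and 54937 and 33395 in KG03723. That of the early list was 91868 and 88613 in rm7, 81216 and 77580 in revert, and 100947 and 117366 in KG03723. Ovary germline genes had a median of -0.33, with 22 of 26 below 0, among them CycB3 at -0.86 and bcd at -0.70. Over all 10105 genes, 5036 lay below 0. The yolk protein genes had differences of 0.20 to 0.28, and fit, a female fat body gene, was at 0.64. The stage of the ovaries on each array is not in the labels, and its part in these values was not tested.

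**Figure D4:**
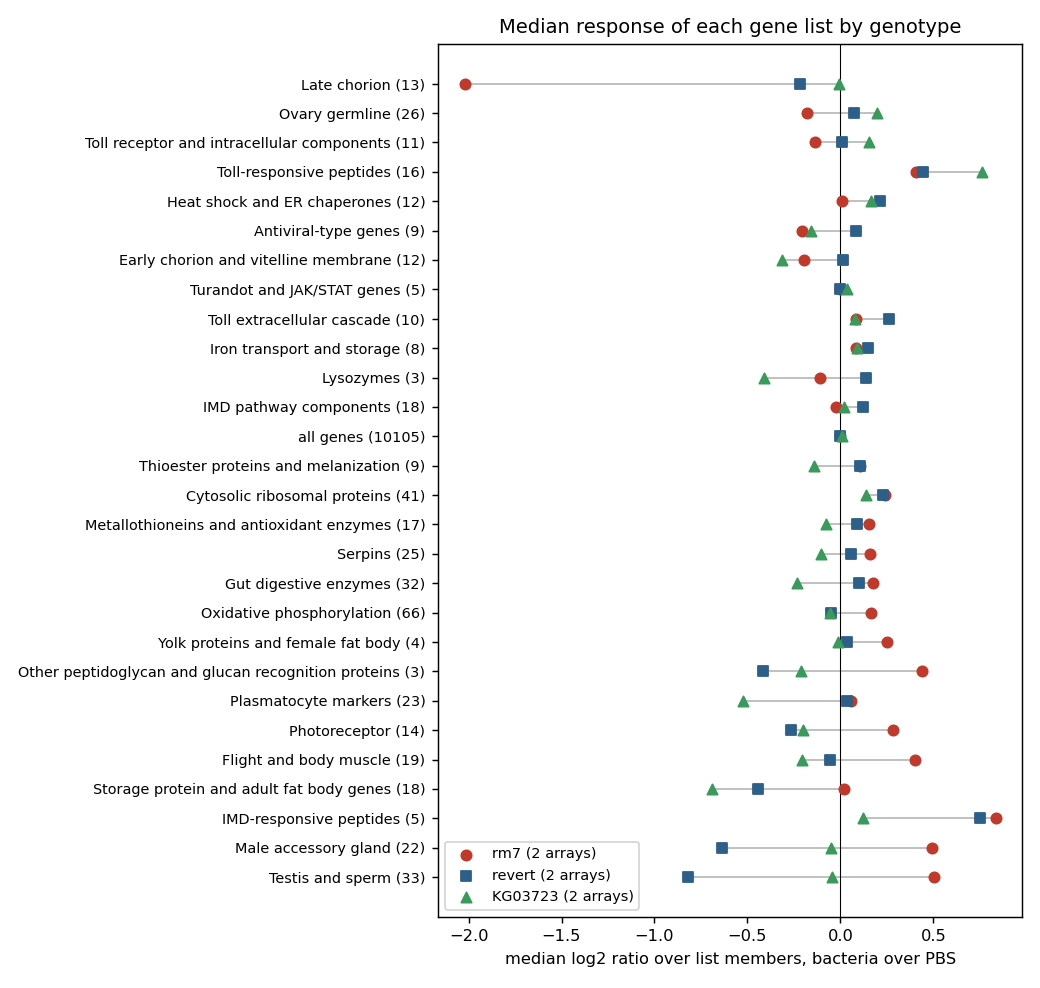
Median log2 ratio of bacteria over PBS over the members of each gene list, for rm7 (circles), revert (squares) and KG03723 (triangles). Lists run from the lowest median difference at the top to the highest at the bottom, with the number of measured genes in brackets. The late chorion circle, from a list partly chosen with values known, stands at -2.02, far left of the other genotypes. For testis and accessory gland genes the 3 genotypes are spread with rm7 highest and revert lowest.

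Genes of male tissues and muscle lay mostly above 0. Over all 10105 genes, 5068 differences lay above 0 and 589 (5.83%) were at least 2-fold higher. Of the 33 measured testis genes 32 had a difference above 0, with a median of 0.92, and 12 were at least 2-fold higher. The median response was 0.50 in rm7, -0.82 in revert and -0.05 in KG03723. The testis genes Mst87F, c-cup and p-cup had differences of 1.505, 1.40 and at least 1.33. For genes of the male accessory gland the median was 0.79, with 22 of 22 above 0 and 6 at least 2-fold higher, led by Acp53C14c (1.76), antr (1.41) and Acp76A (1.20). Without the listed reproductive and muscle genes, a choice made after seeing the data, 569 genes in place of 589 were at least 2-fold higher. On the lower side 70 in place of 80 remained. Of the 10105 genes compared, 485 followed the testis list with a correlation over 0.9. They made up 245 of the 589 higher genes and 0 of the 80 lower ones, and their differences share the sign of that list by construction. Without them 344 genes were at least 2-fold higher.

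Muscle genes had a median of 0.49, with all 19 above 0 and TpnC73F, a troponin C gene, at 1.12. Among all 10105 genes, 5068 lay above 0. Photoreceptor genes had a median of 0.44, with all 14 above 0, and oxidative phosphorylation genes one of 0.20, with 60 of 66 above 0. In that list the 3 largest differences were those of UQCR-11L (1.31), COX7AL (1.34) and ND-24L (1.48). Their responses were 0.92, 0.78 and 0.71 in rm7, -0.73, -1.19 and -1.47 in revert, and -0.05, 0.06 and -0.06 in KG03723. The testis list had the same order of genotypes, and its part in these values was not tested. The summed signal of the muscle list was 62472 after bacteria and 47564 after PBS in rm7, against 59541 and 60607 in revert and 49390 and 56008 in KG03723. In muscle genes the rm7 PBS array was therefore the lowest of the 6. Plasmatocyte markers, which are genes typical of phagocytic blood cells, had a median of 0.30 with 17 of 23 above 0. Their median response was 0.06 in rm7 and 0.04 in revert, against -0.52 in KG03723, and the median difference was 0.08 against revert alone and 0.0011 with a floor at the 60th percentile. Of these, Hml was at 0.80, NimC1 at 0.80 and Pxn at 1.16, and the part of these tissues in the other differences was not tested.

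Among the remaining genes high in rm7, many were dim. Of the 39 genes above both and at least 2-fold higher in rm7, 31 had a mean signal under 200 over the 6 arrays. They include CG2209 (1.93), sev, the receptor kinase gene of the R7 photoreceptor (1.88), CG11756 (1.79) and CG14537 (1.76). The largest bounds were those of CG32628, at least 4.57-fold higher, CG17777, at least 4.23-fold, and CG14785, at least 3.77-fold. The gene dbf was at 1.78, with responses of 0.84 in rm7, -1.71 in revert and -0.18 in KG03723. On the lower side CG34205 had a bound of at least 3.39-fold.

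Other groups differed little. For comparison, 5036 of all 10105 genes lay below 0 and 0.792% were at least 2-fold lower. Heat shock and ER chaperone genes had a median of -0.24, with 11 of 12 below 0, led by Hsp27 (-0.53) and Hsp26 (-0.36), and with Hsp68 at 0.97. The immune-regulated catalase gene Irc was at -0.88, with 1769 and 1676 in rm7, 5301 and 2423 in revert, and 4585 and 2642 in KG03723. In its list of antioxidant and metallothionein genes, MtnC was at 0.79 and GstD2 at 1.05, and the median of 17 was 0.12. Thioester protein and melanization genes had a median of 0.05 over 9, with yellow-f at -0.53, PPO2 at 0.58 and Ddc at 0.41. Serpin genes had a median of 0.17 over 25 and included Acp76A and Spn28Da (1.19). Of 9 antiviral-type genes, 2 were at least 2-fold lower, Diedel and Srg2 (-1.19), and Vago was at 0.96.

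Iron genes had a median of -0.06 over 8, with Tsf2 at -0.52, Mvl at -0.36 and Fer3HCH at 1.20. Gut digestive enzyme genes had a median of 0.17 over 32, with Jon25Bi at 1.20, Mal-A2 at 0.76 and Mal-A3 at 0.73. Cytosolic ribosomal protein genes had one of 0.05 over 41, with the paralogs RpS19b (1.33) and RpL10Aa (1.10) at the top. Turandot and JAK/STAT genes (-0.07 over 5 genes) and lysozyme genes (-0.01 over 3) were few. LysX had a difference of at least 1.08 and stood apart in level, with 85.5 after bacteria and 23.7, under the floor, after PBS in rm7, against 1047 and 1051 in revert and 11235 and 12524 in KG03723.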

How the data were processed

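The series holds 6 single-colour Affymetrix arrays of whole adult flies. The deposited intensity values are linear signals, 1 for each probe set on each array. MAS5 is named in the submitters' processing notes, with no version given. Every array has a 2% trimmed mean of 500. Of 18952 probe sets, 183 controls were left out, 13647 list 1 gene in the platform annotation and 5122 several or none. Current symbols came from RefSeq (Release 6), where 13544 of the 13647 were found. Each of 11982 genes was represented by its brightest probe set.

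A floor of 42.7, the 40th percentile over the whole table, replaced lower signals before log2 was taken. With 1 array per group the differences of log2 ratios have no replicate error. The limma fit (limma 3.58.1, R 4.3.3) used a variance trend and Benjamini-Hochberg adjustment at 0.05, and its SE comes from 1 residual degree of freedom with 3.4 prior ones. It was tested on simulated data: with variances drawn from its own prior, false calls were few, while with the fitted variances they exceeded the nominal rate. A gene list is described by counts and its median, over members above the floor on at least 1 array. The members, lists and rule for named genes were chosen with earlier results of these data known. The rule takes Gyc76C, which has no single-gene probe set here, spz, the 12 lowest and 12 highest genes above the floor on all 6 arrays that lie outside both other genotypes, the 4 largest bounds each way, every measured Toll peptide, IMD peptide and Toll cascade gene, and the 3 largest differences of every other list. The alternatives were other normalizations, floors, thresholds, gene sets and single comparison genotypes. Promoter sequences were not analysed here.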

Additional observations from a re-analysis of the deposited data

Results flagged for a closer look

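Lists whose median response was at least 0.2 in size in every genotype, and named genes with at least 1.5-fold responses in every genotype, were looked at for rm7 moving one way and both other genotypes the opposite way. This held for 2 lists, which were not tested, and 2 genes, which did not pass the limma test. The small list of other peptidoglycan and glucan recognition proteins had a median response of 0.44 in rm7, -0.41 in revert and -0.21 in KG03723, and a median difference of 0.25 over 3 genes. Against revert alone that median was -0.05. The photoreceptor list had a median response of 0.28 in rm7, -0.27 in revert and -0.20 in KG03723, and a median difference of 0.44. The gene lectin-33A read 520 after bacteria and 336 after PBS in rm7, against 240 and 616 in revert and 249 and 596 in KG03723, a difference of 1.94 (limma adjusted p = 0.37). CG13040 read 144 and 93.8 in rm7, against 28.8, under the floor, and 161 in revert and 114 and 175 in KG03723, a difference of at least 1.88 (limma adjusted p = 0.412).

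Among the 5122 probe sets without a single annotated gene, which the comparisons above leave out, 18 had an rm7 response at least 2-fold below both other genotypes. The lowest, 1627759_at, read 85.7 after bacteria and 84.0 after PBS in rm7, against 8707 and 434 in revert and 7284 and 219 in KG03723. Its difference of -4.66 was lower than that of any named gene. The probe set 1628387_s_at read 340 and 267 in rm7, against 7659 and 586 in revert and 6500 and 374 in KG03723 (-3.57). Another, 1629530_at, read 125 and 149 in rm7, against 16339 and 2517 in revert and 23736 and 6718 in KG03723 (-2.51).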

How the results depend on the processing

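The number of arrays limits every value, and no paired analysis was possible because each group has 1 array. The counts of genes at least 2-fold lower and higher (80 and 589) and of genes below and above both other genotypes (52 and 156) depended on the floor and the normalization. Quantile normalization gave 147 and 351, and 81 below and 81 above both. A floor at the 20th percentile gave 338 and 1079, and 203 and 438, and one at the 60th percentile 28 and 139, and 21 and 31. A pseudocount gave 261 higher and 50 above both. A 3-fold threshold gave 25 and 36, and 14 and 11. Against revert alone 1089 genes were higher and against KG03723 alone 323. Without the 485 genes that follow the testis list with a correlation over 0.9, whose differences share its sign by construction, 344 were higher. Genes above the floor on all 6 arrays, a choice made after seeing the data, held 34 of the genes below both. Cyclic loess gave 103 and 498, and 61 and 125. The limma counts of 0 became 63 lower and 137 higher with no filter on dim genes, 2 lower and 1 higher with quantile normalization, 2 lower with cyclic loess and 2 lower with a floor at the 20th percentile. With a floor at the 60th percentile the median difference over genes above it on all arrays shifted to -0.11, that of late chorion genes was -0.47, and CG13084 and CG31926, then mostly under the floor, turned to 0.37 and 0.0026. The cause of the changes was not tested. The Toll-responsive peptide median stayed below 0 in all alternatives run, between -0.34 and -0.07.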

Other observations

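On the higher side, 1630299_at, also without a single annotated gene, read 5259 after bacteria and 1556 after PBS in rm7, against 1614 and 1512 in revert and 1738 and 1539 in KG03723, a difference of 1.62. Its 3 PBS signals were alike and the rm7 bacteria array alone was high. The probe set 1628699_at had a difference of 2.84, with 2345 and 2633 in rm7, 538 and 8536 in revert, and 182 and 738 in KG03723.

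Genes of the below-both kind that were neither 2-fold higher in both other genotypes nor 2-fold lower in rm7 included bright ones, named after their values were seen. CG16713 read 993 after bacteria and 1147 after PBS in rm7, against 13535 and 6641 in revert and 10141 and 5138 in KG03723. CG10680 read 2172 and 2336 in rm7, against 3887 and 2033 in revert and 4661 and 2402 in KG03723. The neprilysin family gene Nep7 read 136 and 171 in rm7, against 566 and 301 in revert and 474 and 284 in KG03723. The haemocyte gene NimB3 was at -0.69, with 882 and 847 in rm7, 2261 and 1355 in revert, and 2612 and 1543 in KG03723, against the direction of most plasmatocyte markers.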
